A study of Mus musculus with 15 samples.

Results

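A set of 10 genes that report on or restrain WNT signalling were followed in mouse mammary organoids exposed to the growth factor FGF10. Their rows in the count table carry the names Tcf7, Lef1, Axin2, Wif1, Nkd1, Nkd2, Rnf43, Znrf3, Dkk3 and Sfrp1, which makes 10 of 54456 genes. Wild-type (WT) epithelial organoids from mammary gland were cultured beside beads carrying FGF10 or, as the control, BSA (bovine serum albumin), and RNA was taken as the tissue migrated, in a study of whether migrating epithelium passes through an epithelial-mesenchymal transition. The 5 groups were FGF10 36 h, BSA 36 h, FGF10 72 h, BSA 72 h and 0 h, with 3 libraries each. All groups shared the WT genotype and a DMEM/F12 medium with L-Ala-Gln, ITS and P/S, and the 0 h group had the label migration 0h with no bead named. The dose of FGF10 and the age and number of animals are not given in the sources used here. Nothing in the labels says that the libraries of a group came from separate animals, so the p-values measure the spread between these libraries, which may be technical.

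WNT proteins bind Frizzled and LRP receptors, which protects beta-catenin from degradation and lets it switch on genes together with TCF and LEF factors. Many of the genes switched on this way act as brakes, either inside the cell, at the receptor or outside the cell, so their RNA is often read as a record of the pathway. WNT signals in the mammary gland are known for branching, for the basal layer and for stem cell activity. FGF10 is a stromal ligand that attracts and expands mammary epithelium through its receptor.

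The libraries held 11965322 to 24261233 assigned fragments, and levels are given as CPM, which are counts scaled to the normalized library size. A filter on low counts left 18140 genes for testing, with 9 of the 10 studied here. Lef1 did not pass, with 13 counts in all. Markers of both epithelial layers were abundant, with 12085 to 15013 CPM summed over 12 basal and myoepithelial genes in FGF10 36 h libraries and 8632 to 9517 CPM in BSA 36 h libraries. At 72 h the basal sum was 20593 to 22803 CPM with FGF10 and 9316 to 11242 CPM with BSA. The 12 luminal genes summed to 17142 to 18838 CPM with FGF10 at 72 h and 13306 to 14416 CPM with BSA. At 36 h the luminal sum was 16526 to 24256 CPM with FGF10 and 13345 to 21663 CPM with BSA. In 0 h libraries the basal sum was 11032 to 15833 CPM and the luminal sum 29381 to 42551 CPM. Over 14 immune genes the FGF10 72 h libraries had 86.9 to 151 CPM, the BSA 72 h libraries 396 to 477 CPM and the 0 h libraries 1627 to 2110 CPM. The 9 adipocyte genes summed to 11.3 to 74.5 CPM with FGF10 at 72 h and 426 to 433 CPM with BSA, and the 10 endothelial genes to 13.7 to 33.2 CPM with FGF10 and 96.2 to 231 CPM with BSA. Of the tested markers in FGF10 72 h against BSA 72 h, edgeR called 3 of 12 basal genes higher and 3 lower, 1 of 12 luminal genes higher, 7 of 12 immune genes lower, 4 of 8 adipocyte genes lower and 2 of 10 endothelial genes lower. In FGF10 36 h against BSA 36 h it called 1 basal, 1 immune and 1 adipocyte gene lower, 1 T lymphocyte gene higher and, of 4 tested neural and Schwann genes, 1 higher, the adhesion gene Ncam1. The 10 cell cycle genes summed to 926 to 1171 CPM in FGF10 36 h and 501 to 748 CPM in BSA 36 h libraries. At 72 h their sum was 669 to 1022 CPM with FGF10 and 297 to 307 CPM with BSA. Of these 10 genes 0 were called with FGF10 at either time. In bulk RNA, fewer cells of a type and less RNA per cell cannot be told apart, and the part of these markers in the results below was not tested. The library 0 h replicate 1 stood apart within its group, with a summed level of 773 CPM over 10 cell cycle genes, against 104 and 76.5 CPM in 0 h replicates 2 and 4. Mitochondrial genes took 3.90 to 4.55% of counts in FGF10 72 h libraries and 2.21 to 2.595% in BSA 72 h libraries, and the part of this share in the 72 h results was not tested. In FGF10 36 h they took 1.11% in replicate 4, which stood apart, and 3.97 and 3.60% in replicates 1 and 3, against 2.02 to 3.43% in BSA 36 h. Without FGF10 36 h replicate 4 the 36 h calls of Tcf7 and Dkk3 given below held (1.07 and 1.01, edgeR adjusted p = 0.02 and 0.0481). The BSA 72 h libraries numbered 2_1 and 2_2 were the most alike of all 15 pairs of libraries within a group and may come from 1 culture, in which case the 3 BSA 72 h libraries hold fewer independent samples than their number.

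With FGF10, the WNT effector Tcf7 was 1.95-fold its BSA level at 36 h and 2.76-fold at 72 h, and the extracellular antagonist Wif1 was 5.52-fold its BSA level at 72 h. Of the feedback inhibitors Nkd1 and Nkd2, Nkd2 rose and Nkd1 fell in FGF10 72 h organoids. Axin2, a widely used WNT target, did not exceed 1.23 CPM in any library, and Lef1 did not exceed 0.338 CPM. A gene was called when its adjusted p from edgeR's quasi-likelihood test, with Benjamini-Hochberg adjustment over all tested genes, was under 0.05. In FGF10 36 h against BSA 36 h, 2 of the 9 tested genes were called, both higher, where 2.34% of all tested genes were called (0.954% higher and 1.39% lower). In FGF10 72 h against BSA 72 h, 3 were called higher and 1 lower, where 5.99% of all tested genes were called (3.01% higher and 2.98% lower). The median log2 difference of the 9 was 0.16 at 36 h and 0.69 at 72 h, and that of all tested genes was 0.0016 and -0.0071. The medians of the 9 are the estimates of Znrf3 at 36 h (0.16 ± 0.26) and Axin2 at 72 h (0.69 ± 0.82), neither of them called.

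**Figure D1:**
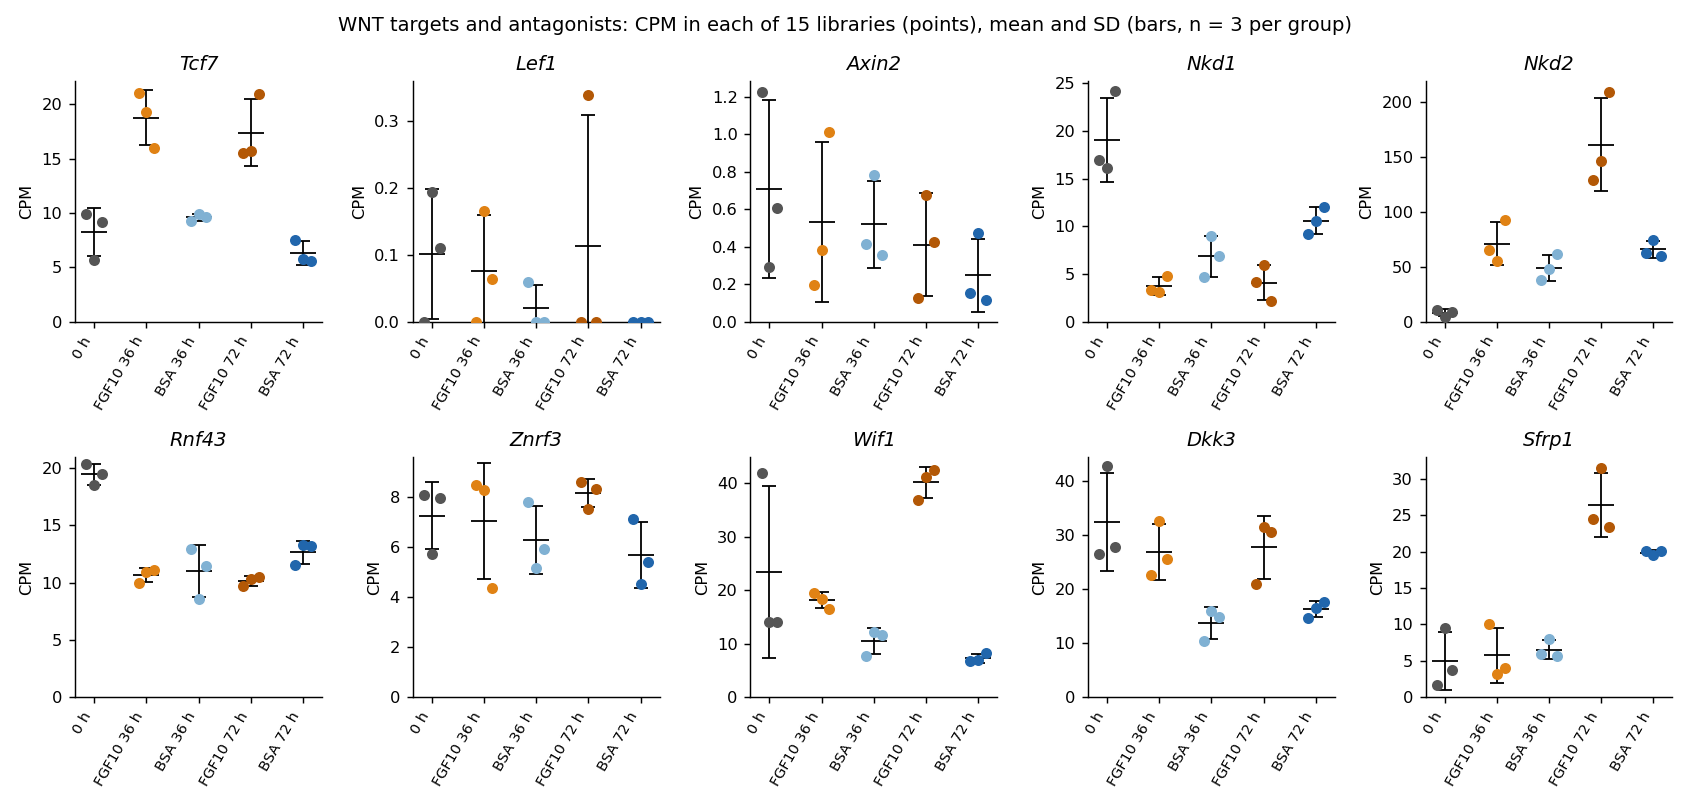
CPM of each of the 10 genes (vertical axis, linear and starting at 0) in the 15 libraries, with groups along the horizontal axis; points are libraries and bars are the mean and SD of 3 libraries. Tcf7 in FGF10 libraries lay at 15.5 to 21.04 CPM, above every BSA and 0 h library, and Wif1 in FGF10 72 h libraries lay at 37.0 to 42.5 CPM.

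Tcf7 (chr11:52143198-52174158, minus strand, GRCm39) encodes a TCF factor that carries the WNT signal to DNA and is itself a WNT target. Its level was 21.04, 19.3 and 16.01 CPM in FGF10 36 h replicates 1, 3 and 4, against 9.28, 9.92 and 9.63 CPM in BSA 36 h replicates 1, 2 and 3. At 72 h it was 15.5, 15.7 and 20.96 CPM in FGF10 replicates 2, 3 and 4, against 7.54, 5.77 and 5.54 CPM in BSA replicates 2_1, 2_2 and 3. Every FGF10 library was above every BSA library of its time, by 0.97 ± 0.20 on the log2 scale at 36 h (SE, edgeR adjusted p = 0.0234) and by 1.47 ± 0.21 at 72 h (edgeR adjusted p = 0.0022). The 0 h libraries held 9.89, 5.71 and 9.13 CPM. Tcf7 was higher than at 0 h in FGF10 organoids, by 1.17 ± 0.21 at 36 h and 1.06 ± 0.21 at 72 h (edgeR adjusted p = 0.000497 and 0.00127). In BSA organoids the difference from 0 h was 0.21 ± 0.21 at 36 h and -0.40 ± 0.21 at 72 h (edgeR adjusted p = 0.492 and 0.18), and the ranges overlapped. The group means thus ran from FGF10 36 h (18.8 CPM) and FGF10 72 h (17.4 CPM), whose ranges overlapped, through BSA 36 h (9.61 CPM) and 0 h (8.24 CPM), which also overlapped, to BSA 72 h (6.29 CPM).

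The 36 h call of Tcf7 was lost without FGF10 36 h replicate 1 (0.88, edgeR adjusted p = 0.0806), without BSA 36 h replicate 2 (0.99, edgeR adjusted p = 0.066), without BSA 36 h replicate 3 (0.97, edgeR adjusted p = 0.0979) and in a fit of only the 2 groups (0.96, edgeR adjusted p = 0.0745). At 72 h it held in all 15 alternatives tried. The BSA 72 h difference from 0 h was called without 0 h replicate 2 (-0.60, edgeR adjusted p = 0.0399). Tcf7 is also a gene of T lymphocytes, so their markers are given here. Summed over 10 T lymphocyte genes, the level was 20.6 to 43.8 CPM in FGF10 36 h and 9.63 to 15.1 CPM in BSA 36 h libraries, and 14.4 to 17.99 CPM in FGF10 72 h and 8.54 to 11.1 CPM in BSA 72 h libraries. Of 5 tested genes of that list 1 was called higher at each time, Trbc2, a T cell receptor constant gene, with means of 22.6 CPM in FGF10 36 h and 7.96 CPM in BSA 36 h libraries. Of the same list, Cd3d, Cd3e and Cd3g, which encode the CD3 chains, were each at 0 counts in the FGF10 72 h libraries. In FGF10 36 h libraries they averaged 0.0211, 0.0401 and 0.0829 CPM. Of the 10 genes, 6, 5 and 6 were at 0 counts in FGF10 72 h replicates 2, 3 and 4. In BSA 72 h replicates 2_1, 2_2 and 3 it was 4, 6 and 6 of the 10. The part of T lymphocytes in the Tcf7 differences was not tested.

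Lef1 (chr3:130904120-131018005, plus strand, GRCm39), the sister factor of Tcf7, was nearly silent. It had 0, 0.164 and 0.0633 CPM in FGF10 36 h libraries, against 0.0595, 0 and 0 CPM in BSA 36 h libraries. In the 72 h libraries there were 0, 0.338 and 0 CPM with FGF10, against 0 in all 3 BSA libraries, and it had 0, 0.194 and 0.11 CPM at 0 h. The 0 counts of BSA 72 h allow a level of up to 0.0558 CPM over the group (3 counts, counting error only). No difference of Lef1 was detectable at this depth. Per kilobase of exon, Tcf7 averaged 6.22 CPM and Lef1 0.00864 CPM in FGF10 36 h libraries.

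Axin2 (chr11:108811175-108841609, plus strand, GRCm39) encodes a scaffold of the complex that destroys beta-catenin. It had 0.196, 0.384 and 1.01 CPM in FGF10 36 h libraries, against 0.416, 0.784 and 0.357 CPM in BSA 36 h libraries. The later time gave 0.128, 0.676 and 0.426 CPM with FGF10, against 0.154, 0.471 and 0.115 CPM with BSA. The 0 h libraries had 1.23, 0.29 and 0.605 CPM. The groups overlapped in every comparison and none was called: the log2 difference of FGF10 from BSA was 0.02 ± 0.72 at 36 h and 0.69 ± 0.82 at 72 h (edgeR adjusted p = 0.992 and 0.665). With 2 to 29 counts per library these standard errors are too wide to show that Axin2 was alike in the groups.

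Nkd1 and Nkd2 encode Naked cuticle proteins, which bind Dishevelled inside the cell and damp WNT signalling. Nkd2 (chr13:73966653-73995750, minus strand, GRCm39) had 64.9, 54.8 and 92.6 CPM in FGF10 36 h libraries, against 37.6, 47.4 and 61.0 CPM in BSA 36 h libraries. At the later time the level was 129, 146 and 208 CPM with FGF10, against 62.5, 74.4 and 59.7 CPM with BSA. The 36 h ranges overlapped (0.54 ± 0.28, edgeR adjusted p = 0.316). The 72 h ranges did not, and Nkd2 rose by 1.30 ± 0.28 with FGF10 (edgeR adjusted p = 0.0181). The 0 h libraries had only 10.5, 4.45 and 8.69 CPM, below all 12 later libraries. Against 0 h, Nkd2 rose in every later group, by 3.14 ± 0.31 in FGF10 36 h, 2.598 ± 0.30 in BSA 36 h, 4.32 ± 0.32 in FGF10 72 h and 3.03 ± 0.31 in BSA 72 h (edgeR adjusted p of at most 3.7e-05).

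Nkd1 (chr8:89247982-89321512, plus strand, GRCm39) had 3.27, 3.12 and 4.81 CPM in FGF10 36 h libraries, against 4.70, 9.02 and 6.84 CPM in BSA 36 h libraries. The 72 h values were 4.17, 5.91 and 2.19 CPM with FGF10, against 9.24, 10.5 and 12.01 CPM with BSA. The ranges overlapped at 36 h (-0.88 ± 0.32, edgeR adjusted p = 0.152), and at 72 h every FGF10 library was below every BSA library, with a log2 difference of -1.39 ± 0.32 (edgeR adjusted p = 0.0233). The 0 h libraries had 16.9, 16.2 and 24.2 CPM, above all later ones. Against 0 h Nkd1 was lower in FGF10 36 h (-2.36 ± 0.32), FGF10 72 h (-2.24 ± 0.32) and BSA 36 h (-1.48 ± 0.31), with edgeR adjusted p of 7.2e-05, 0.000127 and 0.00258. In BSA 72 h the difference was -0.85 ± 0.30 with no overlap (edgeR adjusted p = 0.0517). It was called in 5 of 14 alternatives, by edgeR with no filter, with the replicate block and with only the 2 groups (adjusted p = 0.0323, 0.0499 and 0.0143), by limma voom (adjusted p = 0.00447) and by the Wald test of DESeq2 (adjusted p = 0.0339). The immune marker sum had the same order of groups as Nkd1, with medians of 99.6 CPM in FGF10 36 h, 129 CPM in FGF10 72 h, 204 CPM in BSA 36 h, 451 CPM in BSA 72 h and 1885 CPM at 0 h. The medians of the fibroblast, mural, endothelial and adipocyte sums had that order too. The part of these sums in the Nkd1 result was not tested.

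The 72 h calls of both genes were lost when single libraries were left out. Without FGF10 72 h replicate 4 the log2 difference was 1.07 for Nkd2 (edgeR adjusted p = 0.107) and -1.07 for Nkd1 (edgeR adjusted p = 0.12). Without BSA 72 h replicate 2_1, 2_2 or 3, Nkd2 had an edgeR adjusted p of 0.0749, 0.0582 or 0.0854 and Nkd1 one of 0.0521, 0.075 or 0.0892. Nkd1 also lost its call without FGF10 72 h replicate 2 (-1.41, edgeR adjusted p = 0.0643). With 2_1 and 2_2 summed into 1 library the log2 difference was 1.33 for Nkd2 (edgeR adjusted p = 0.0633) and -1.43 for Nkd1 (edgeR adjusted p = 0.0611). With no filter Nkd2 had an edgeR adjusted p of 0.0529. The direction of both was kept in each of these fits.

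Taking both genes per kilobase of exon, the share of Nkd2 in their sum was 94.7 ± 0.334% in FGF10 36 h, 87.0 ± 3.29% in BSA 36 h, 97.2 ± 1.56% in FGF10 72 h, 85.3 ± 2.48% in BSA 72 h and 27.6 ± 8.35% at 0 h (SD, n = 3 each). Nkd1 was thus the more abundant of the pair in all 3 libraries at 0 h and Nkd2 in all 12 later ones. The share was higher in every FGF10 library than in any BSA library of its time.

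**Figure D2:**
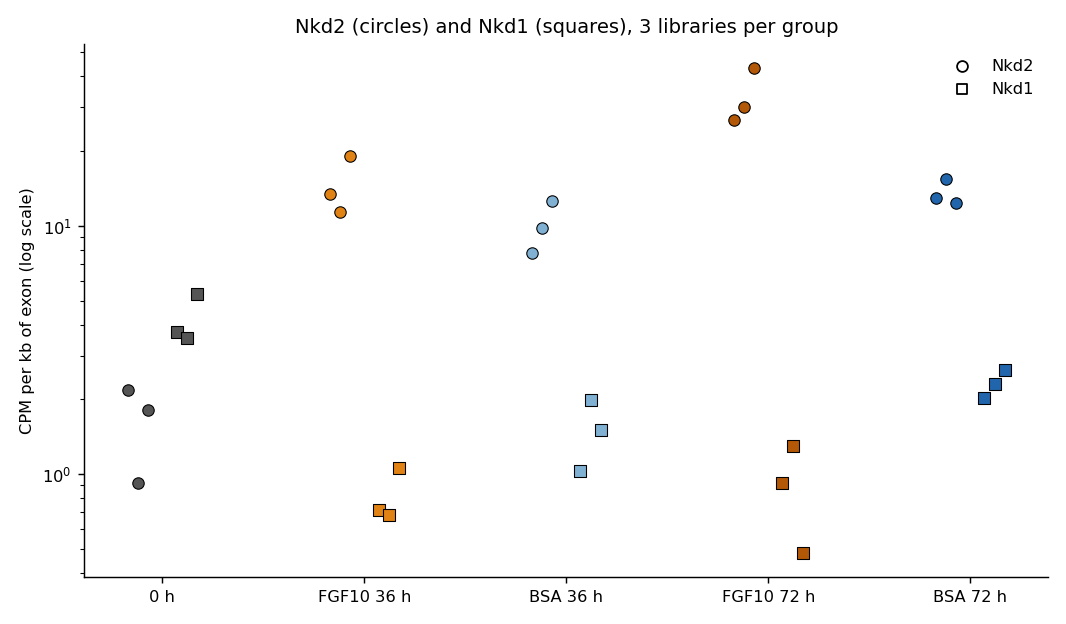
CPM per kilobase of exon of Nkd2 (circles) and Nkd1 (squares) on a log axis, with 3 libraries in each of the 5 groups along the horizontal axis. Nkd1 lies above Nkd2 at 0 h and far below it in all later groups, where mean Nkd2 reached 33.4 CPM per kb in FGF10 72 h and 13.6 in BSA 72 h.

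Because these paralogs moved in opposite directions, the 250 bases before their annotated starts are shown, from RefSeq on GRCm38.p6, which is not the build of the counts. Both are written 5′ to 3′ on the strand of the gene in lower case. Capitals would mark CTTTG, the core of the TCF/LEF motif, searched on both strands, and neither window holds it. The Nkd2 window is chr13:73847632-73847881 on the minus strand and the Nkd1 window is chr8:88527383-88527632 on the plus strand.
Nkd2: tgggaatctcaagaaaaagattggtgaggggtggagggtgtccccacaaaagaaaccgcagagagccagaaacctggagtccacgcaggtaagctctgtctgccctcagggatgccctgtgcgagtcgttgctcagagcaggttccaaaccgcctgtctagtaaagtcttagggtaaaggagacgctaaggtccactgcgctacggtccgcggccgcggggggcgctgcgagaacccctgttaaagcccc
Nkd1: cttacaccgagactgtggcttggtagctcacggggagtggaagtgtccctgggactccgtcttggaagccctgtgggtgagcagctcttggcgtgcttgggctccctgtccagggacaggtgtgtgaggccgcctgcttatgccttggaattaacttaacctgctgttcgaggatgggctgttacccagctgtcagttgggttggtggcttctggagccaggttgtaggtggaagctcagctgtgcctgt
Both windows were 58.4% G and C, with 14 CpG pairs for Nkd2 and 6 for Nkd1, against medians of 52.4% and 6 over 32851 windows of the same length. RefSeq windows were matched for 7 of the 10 genes, 12 windows in all. The longer motifs CTTTGAT and CTTTGAA, which each contain CTTTG, were in 0 of the 12, where 3.21% and 4.46% of all windows held them. CTTTG was in 5 of the 12, 4 of Lef1 and 1 of Wif1, where 48.6% of all windows held it. The Lef1 windows starting at chr3:131110047 and chr3:131110073 overlap and share a match, so the 5 are not independent. These matches describe letters in a short window only.

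Rnf43 and Znrf3 encode membrane ubiquitin ligases that remove Frizzled receptors from the surface. Rnf43 (chr11:87553548-87626365, plus strand, GRCm39) had 9.93, 10.9 and 11.1 CPM in FGF10 36 h libraries, against 12.96, 8.57 and 11.5 CPM in BSA 36 h libraries. By 72 h the level was 9.69, 10.3 and 10.5 CPM with FGF10, against 11.5, 13.3 and 13.2 CPM with BSA. The 72 h ranges did not overlap, but the log2 difference was -0.31 ± 0.15 (edgeR adjusted p = 0.228), and at 36 h it was -0.05 ± 0.15 (edgeR adjusted p = 0.895). All 12 later libraries were below the 0 h libraries, which had 20.4, 18.5 and 19.5 CPM. Rnf43 fell against 0 h in each group, with log2 differences of -0.87 ± 0.15 in FGF10 36 h, -0.82 ± 0.15 in BSA 36 h, -0.94 ± 0.15 in FGF10 72 h and -0.62 ± 0.15 in BSA 72 h (edgeR adjusted p of at most 0.00711).

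Znrf3 (chr11:5226324-5394847, minus strand, GRCm39) was called in none of the comparisons by edgeR. It had 8.49, 8.28 and 4.37 CPM in FGF10 36 h libraries, against 7.79, 5.15 and 5.95 CPM in BSA 36 h libraries. At 72 h it had 8.60, 7.52 and 8.35 CPM with FGF10, against 7.13, 4.54 and 5.43 CPM with BSA. These 72 h ranges were apart, with a log2 difference of 0.52 ± 0.26 (edgeR adjusted p = 0.251). Under limma voom the 72 h differences of both ligase genes were called, Znrf3 at 0.55 (adjusted p = 0.0298) and Rnf43 at -0.32 (adjusted p = 0.0478). The 0 h libraries had 8.07, 5.71 and 7.98 CPM, within the range of the later ones. As a share of Rnf43 plus Znrf3 per kilobase, Znrf3 made up 37.7 to 42.4% in FGF10 72 h, 22.1 to 34.0% in BSA 72 h and 20.4 to 25.4% in 0 h libraries.

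Wif1 (chr10:120869865-120936555, plus strand, GRCm39) encodes a secreted protein that binds WNT ligands. It had 19.5, 18.4 and 16.5 CPM in FGF10 36 h libraries, against 7.67, 12.2 and 11.7 CPM in BSA 36 h libraries. In the 72 h libraries there were 37.0, 41.2 and 42.5 CPM with FGF10, against 6.72, 6.95 and 8.198 CPM with BSA. The groups did not overlap at either time. The log2 difference was 0.79 ± 0.34 at 36 h (edgeR adjusted p = 0.233) and 2.46 ± 0.35 at 72 h (edgeR adjusted p = 0.0031), the largest difference between FGF10 and BSA among the 9 tested genes. At 72 h the call held in all 15 alternatives tried, with an adjusted p of at most 0.0236. Without 0 h replicate 1 the 36 h difference was 0.78 and was called (edgeR adjusted p = 0.0179).

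At 0 h Wif1 stood at 41.9 CPM in replicate 1, against 14.1 and 14.03 CPM in replicates 2 and 4, so comparisons with 0 h depended on that library. Wif1 was lower than at 0 h in BSA 36 h (-1.16 ± 0.34, edgeR adjusted p = 0.0213) and BSA 72 h (-1.69 ± 0.35, edgeR adjusted p = 0.00283). Without 0 h replicate 1 these were -0.42 (edgeR adjusted p = 0.109) and -0.95 (edgeR adjusted p = 0.00184). Leaving out BSA 36 h replicate 1 also ended the BSA 36 h call (-0.999, edgeR adjusted p = 0.0732), and a fit of only the 2 groups ended both calls (edgeR adjusted p = 0.15 and 0.0529). The BSA 36 h call was also lost with no filter (edgeR adjusted p = 0.0822) and under limma voom (-0.65, adjusted p = 0.0666). FGF10 72 h differed from 0 h by 0.77 ± 0.33 (edgeR adjusted p = 0.0964), and was called without 0 h replicate 1 (1.51, edgeR adjusted p = 3.05e-05) and under limma voom (1.20, adjusted p = 0.000617). FGF10 36 h differed from 0 h by -0.38 ± 0.33 (edgeR adjusted p = 0.39), and by 0.36 without that library, a change of sign.

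Dkk3 (chr7:111715224-111758264, minus strand, GRCm39) encodes a secreted Dickkopf family protein whose effect on WNT signalling is less settled than that of its relatives. It had 22.6, 32.7 and 25.5 CPM in FGF10 36 h libraries, against 10.3, 15.9 and 14.9 CPM in BSA 36 h libraries. The later time gave 20.98, 31.5 and 30.6 CPM with FGF10, against 14.6, 16.6 and 17.5 CPM with BSA. FGF10 libraries were above BSA libraries without overlap at both times, and Dkk3 was called higher at 36 h (0.97 ± 0.22, edgeR adjusted p = 0.0355) and missed the threshold at 72 h (0.77 ± 0.22, edgeR adjusted p = 0.0541). The 36 h call was lost without BSA 36 h replicate 1, 2 or 3 (edgeR adjusted p = 0.0804, 0.06 and 0.102) and without FGF10 36 h replicate 3 (edgeR adjusted p = 0.0749). It was also lost in a fit of only the 2 groups (edgeR adjusted p = 0.119) and with 2_1 and 2_2 summed (edgeR adjusted p = 0.0553). At 72 h Dkk3 was called in 7 of 15 alternatives. They were leaving out FGF10 72 h replicate 2 (0.94, edgeR adjusted p = 0.0447) or 0 h replicate 1 (0.77, edgeR adjusted p = 0.0349), the fits with no filter, with the replicate block and with only the 2 groups (edgeR adjusted p = 0.0143, 0.028 and 0.0019), limma voom (adjusted p = 0.00572) and the Wald test of DESeq2 (adjusted p = 0.0261).

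The 0 h libraries had 26.5, 42.9 and 27.8 CPM of Dkk3. In BSA organoids Dkk3 was lower than at 0 h, with log2 differences of -1.23 ± 0.22 at 36 h and -0.99 ± 0.22 at 72 h (edgeR adjusted p = 0.000998 and 0.00437). In FGF10 organoids the ranges overlapped with 0 h, with log2 differences of -0.26 ± 0.22 and -0.22 ± 0.22 (edgeR adjusted p = 0.365 and 0.484). Wif1 and Dkk3 were thus both called lower than 0 h in each BSA group and in neither FGF10 group. The Wif1 call in BSA 36 h was lost without 0 h replicate 1. The contrast between BSA and FGF10 groups is tested only by the FGF10 against BSA values given for each gene. Of these, Wif1 at 36 h and Dkk3 at 72 h were not called (edgeR adjusted p = 0.233 and 0.0541).

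Sfrp1 (chr8:23901518-23939648, plus strand, GRCm39) encodes a secreted Frizzled-related protein that binds WNT ligands. It had 10.1, 3.23 and 3.99 CPM in FGF10 36 h libraries, against 5.89, 8.01 and 5.65 CPM in BSA 36 h libraries. At the later time the level was 24.5, 31.5 and 23.4 CPM with FGF10, against 20.1, 19.5 and 20.03 CPM with BSA. The 36 h ranges overlapped (-0.19 ± 0.50, edgeR adjusted p = 0.873). The 72 h ranges were apart with a log2 difference of 0.41 ± 0.47 (edgeR adjusted p = 0.654). In a fit of only the 2 groups this 72 h difference was 0.40 and was called (edgeR adjusted p = 0.0201). Against the 0 h libraries, at 1.69, 9.48 and 3.80 CPM, it was higher by 2.48 ± 0.52 in FGF10 72 h and 2.06 ± 0.51 in BSA 72 h (edgeR adjusted p = 0.00315 and 0.0103). The sizes depended on single 0 h libraries. Without 0 h replicate 2, the highest of them, they were 3.28 and 2.87 (edgeR adjusted p = 0.000222 and 0.000639). Without 0 h replicate 1, the lowest, they were 2.03 and 1.62 (edgeR adjusted p = 0.00369 and 0.0169). The BSA 72 h call was lost in a fit of only the 2 groups (2.08, edgeR adjusted p = 0.0528).

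**Figure D3:**
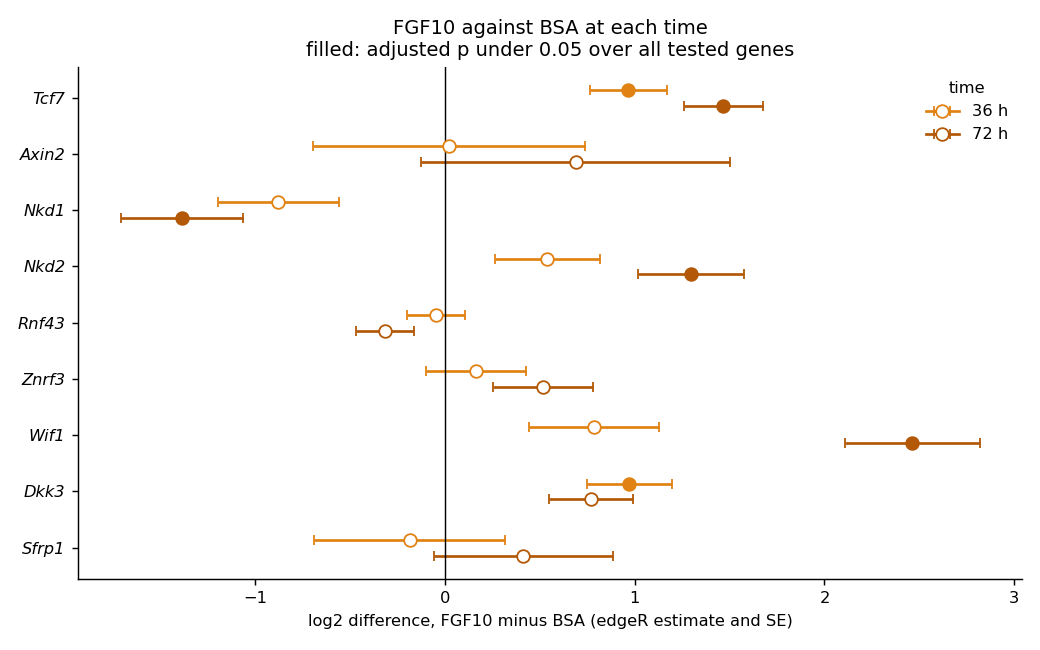
Log2 difference, FGF10 minus BSA, at 36 h (light) and 72 h (dark) for the 9 tested genes; points are edgeR estimates, bars are standard errors and filled points have an adjusted p under 0.05. At 72 h Wif1 (2.46), Tcf7 (1.47) and Nkd2 (1.30) lie to the right of 0 and Nkd1 (-1.39) to the left.

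The FGF10 and BSA ranges were apart for 3 of the 9 tested genes at 36 h and for 8 at 72 h, all but Axin2, where 19.4% and 43.7% of all tested genes were apart. Whether the FGF10 effect changed between the times was tested as an interaction. None of the 9 was called, as 0% of all tested genes were. At an unadjusted edgeR p under 0.05 there were 998 genes and 1 of the 9, and the adjusted tests of DESeq2 and limma voom called 18 and 0 genes, with none of the 9. Wif1 had the largest change, 1.68 ± 0.48 on the log2 scale (edgeR adjusted p = 0.753). Nkd2 changed by 0.76 ± 0.39 and Tcf7 by 0.50 ± 0.29 (edgeR adjusted p = 0.909 for each). The 72 h calls of Wif1, Nkd1 and Nkd2 and the 36 h call of Dkk3 are therefore not shown to be specific to their times.

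Against 0 h, 4 of the 9 were called in FGF10 36 h (2 higher and 2 lower, background 39.8%, with 19.3% higher and 20.5% lower), 5 in BSA 36 h (1 higher and 4 lower, background 27.1%, with 12.7% and 14.4%), 5 in FGF10 72 h (3 higher and 2 lower, background 29.9%, with 13.8% and 16%) and 5 in BSA 72 h (2 higher and 3 lower, background 25.2%, with 12.2% and 13%). Each of these comparisons shares the 0 h libraries, so they are not independent of each other. Nkd2 upward and Rnf43 downward were the calls found in all 4 later groups. Tcf7 was called higher in both FGF10 groups, and Sfrp1 was called higher in both 72 h groups. Marker genes differed from 0 h too. Of 12 luminal genes, 8 and 7 were called lower in FGF10 36 h and BSA 36 h, and 6 and 7 at 72 h. Of 10 endothelial genes 10 and 4 were lower at 36 h and 7 and 1 at 72 h, in the same order. Neither list had a gene called higher. Of 12 immune genes 11 and 11 were lower at 36 h and 11 and 6 at 72 h, with 1 higher in BSA 72 h. Of 9 fibroblast genes 8 and 6 were lower at 36 h and 7 and 3 at 72 h. Of 6 mural genes 6 and 2 were lower at 36 h and 2 and 0 at 72 h. Basal genes were called in both directions in each group, and 5 of 8 adipocyte genes were higher in BSA 72 h. The part of these markers in the differences from 0 h was not tested.

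**Figure D4:**
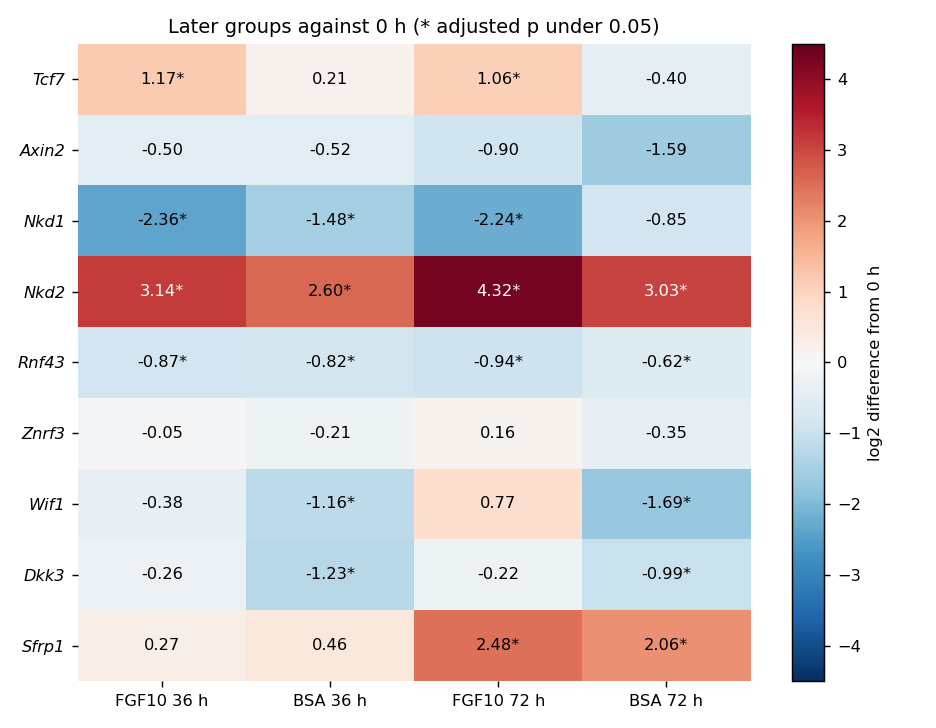
Log2 difference from 0 h (colour and number) of the 9 tested genes, in rows, in FGF10 36 h, BSA 36 h, FGF10 72 h and BSA 72 h, in columns; an asterisk marks an edgeR adjusted p under 0.05. Nkd2 is high in every column, up to 4.32 in FGF10 72 h, and Nkd1 and Rnf43 are low in every column.

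Within the FGF10 arm, 2 of the 9 were called between 72 h and 36 h, both higher, where 1.91% of all tested genes were (1.42% higher and 0.491% lower). Sfrp1 was higher at 72 h by 2.205 ± 0.51 (edgeR adjusted p = 0.045) and Nkd2 by 1.19 ± 0.28 (edgeR adjusted p = 0.0445). Wif1 differed by 1.15 ± 0.34 with no overlap (edgeR adjusted p = 0.107). Within the BSA arm 0 of the 9 were called by edgeR, where 0.469% of all tested genes were (0.325% higher and 0.143% lower). The largest difference there was Sfrp1, at 1.61 ± 0.49 with no overlap (edgeR adjusted p = 0.153). Without 0 h replicate 1, Wif1 in the FGF10 arm (edgeR adjusted p = 0.0017) and Sfrp1 in the BSA arm (edgeR adjusted p = 0.0358) were called. Both were also called in a fit of only the 2 groups (edgeR adjusted p = 0.0125 and 0.00174). Limma voom (adjusted p = 0.0102 and 0.00371) and the Wald test of DESeq2 (adjusted p = 0.0248 and 0.0252) called them too. The main-fit calls of Sfrp1 and Nkd2 in the FGF10 arm were near the threshold. Nkd2 lost its call without any 1 of FGF10 72 h replicates 2, 3 and 4 or FGF10 36 h replicates 1 and 3 (edgeR adjusted p = 0.0767, 0.117, 0.142, 0.111 and 0.0977). The Nkd2 call was also lost under DESeq2 size factors and with no filter (edgeR adjusted p = 0.0503 and 0.135). A fit of only the 2 groups and the sum of 2_1 and 2_2 ended it too (edgeR adjusted p = 0.0782 and 0.0696). Sfrp1 lost its call without any 1 of FGF10 72 h replicates 2, 3 and 4 or FGF10 36 h replicates 3 and 4 (edgeR adjusted p = 0.127, 0.165, 0.0844, 0.0962 and 0.14), and with the replicate number as a block (edgeR adjusted p = 0.0816). The Sfrp1 call was also lost with no filter and with 2_1 and 2_2 summed (edgeR adjusted p = 0.11 and 0.075).

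Levels of different genes were compared per kilobase of exon. In FGF10 72 h libraries Nkd2 was highest at 33.4 CPM per kb, followed by Wif1 at 16.6, Dkk3 at 8.25, Sfrp1 at 6.05 and Tcf7 at 5.76. In BSA 72 h libraries Nkd2 was again highest at 13.6 CPM per kb, followed by Dkk3 at 4.84, Sfrp1 at 4.54 and Wif1 at 3.004. At 0 h the order was different, with Dkk3 at 9.65 CPM per kb and Wif1 at 9.62 on top and Nkd2 at 1.63. The Wif1 mean rested on 0 h replicate 1, at 17.3 CPM per kb, and without that library Wif1 averaged 5.80 and Dkk3 10.5 CPM per kb. Axin2 did not exceed a mean of 0.128 CPM per kb in any group.

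A further 7 lists of WNT genes were examined around these 10 genes. Of their 74 tested genes, 1 was called with FGF10 at 36 h (1.35%, where 2.34% of all tested genes were called) and 6 at 72 h (8.11%, where 5.99% were), so both shares were near the background. Among ligands, 9 of 19 were tested, and at 72 h 1 was higher with FGF10: Wnt7b, an epithelial ligand, averaged 36.5 CPM with FGF10 and 22.1 CPM with BSA (0.73 ± 0.18, edgeR adjusted p = 0.0294). Among 16 receptors 1 was higher at 72 h, Fzd2 (17.1 and 11.8 CPM with FGF10 and BSA, 0.54 ± 0.15, edgeR adjusted p = 0.0442), and 1 lower, Fzd4 (3.17 and 6.35 CPM, -0.99 ± 0.25, edgeR adjusted p = 0.0308). At 36 h no ligand or receptor was called.

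Among 16 transducers of beta-catenin 1 was higher at 72 h, the nuclear coactivator Pygo2 (40.3 and 29.2 CPM with FGF10 and BSA, 0.47 ± 0.12, edgeR adjusted p = 0.0341), and beta-catenin itself, Ctnnb1, averaged 298 CPM in FGF10 36 h and 331 CPM in BSA 36 h libraries (edgeR adjusted p = 0.768). At 72 h Ctnnb1 averaged 367 CPM with FGF10 and 290 CPM with BSA and was not called. Of 12 tested other antagonists 2 were higher at 72 h. They were Ctnnbip1, which blocks beta-catenin from TCF factors, at 50.2 and 32.0 CPM with FGF10 and BSA (0.65 ± 0.17, edgeR adjusted p = 0.0338), and Dkk2, at 1.56 and 0.0962 CPM (edgeR adjusted p = 0.0412). The BSA 72 h libraries held only 5 counts of Dkk2, so its fitted fold change is not given. At 36 h none of the 12 was called.

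Of 14 tested other WNT targets none was called with FGF10 at either time. Cyclin D1, Ccnd1, averaged 306 CPM with FGF10 and 135 CPM with BSA at 72 h (1.18 ± 0.38, edgeR adjusted p = 0.083). The direct targets Sp5 and Notum had at most 4 counts in any group. Among secretion genes 1 of 5 was called at 36 h, Tmed5, a cargo receptor (154 and 92.2 CPM with FGF10 and BSA, 0.74 ± 0.18, edgeR adjusted p = 0.0478). Among R-spondins and their receptors 0 of 4 tested were called at either time. The median log2 difference at 72 h was 0.54 for the ligands, 0.19 for the receptors, -0.016 for the other antagonists and 0.24 for the other targets, against -0.0071 for all tested genes.

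**Figure D5:**
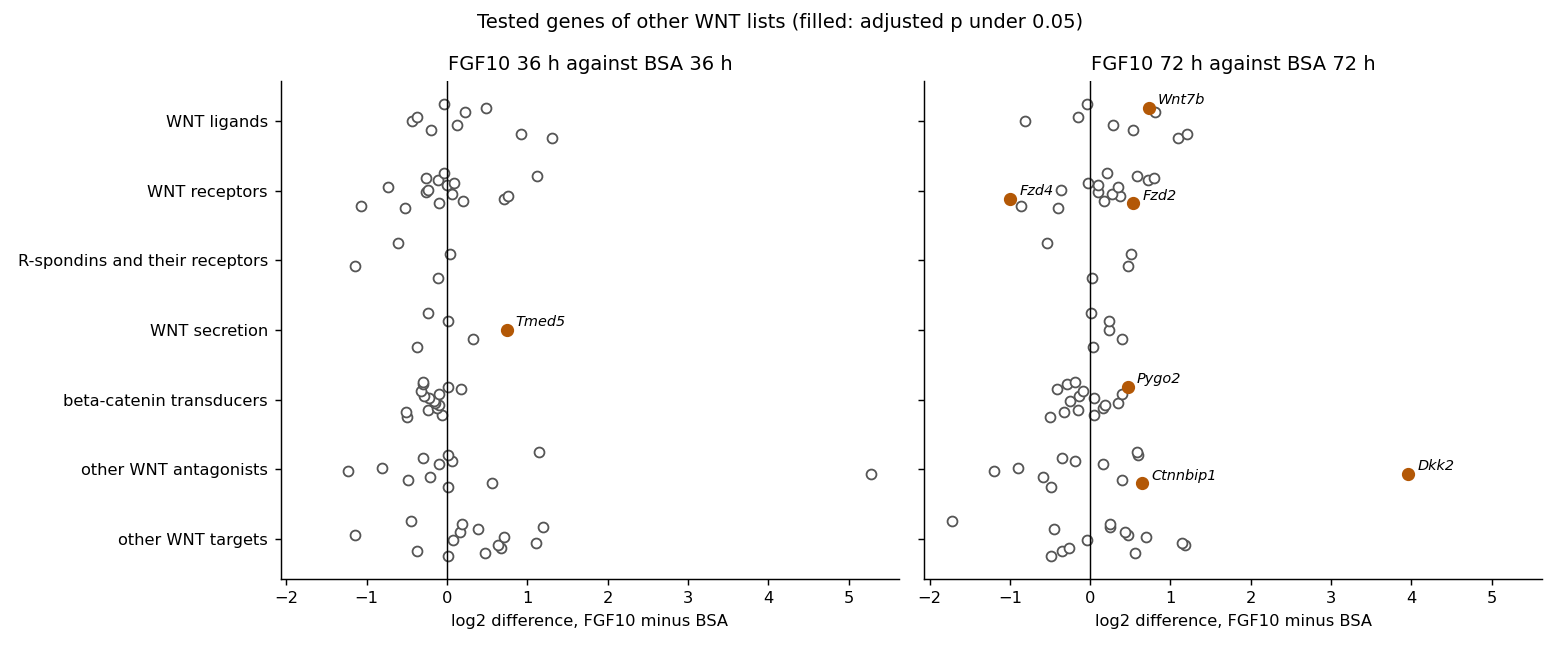
Log2 difference, FGF10 minus BSA, of every tested gene of 7 other WNT lists (rows) at 36 h (left) and 72 h (right); filled and named points have an edgeR adjusted p under 0.05. At 36 h the only filled point is Tmed5, and at 72 h they are Wnt7b, Fzd2, Fzd4, Pygo2, Ctnnbip1 and Dkk2.

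Several genes of these lists also differed between times. Sostdc1, a secreted WNT and BMP antagonist, averaged 484 CPM in FGF10 72 h and 321 CPM in BSA 72 h libraries, against 41.5 CPM at 0 h (3.54 ± 0.28 and 2.95 ± 0.28, edgeR adjusted p = 6.74e-07 and 3.85e-06). Sfrp2, a relative of Sfrp1, was lower than at 0 h, at 1.65 and 2.09 CPM against 6.64 CPM (-2.01 ± 0.32 and -1.66 ± 0.31, edgeR adjusted p = 0.00026 and 0.0011). The ligand Wnt10a was higher in both 72 h groups, at 28.8 CPM with FGF10 and 13.5 CPM with BSA against 4.92 CPM at 0 h (2.53 ± 0.41 and 1.44 ± 0.40, edgeR adjusted p = 0.000499 and 0.019). Wnt4, a progesterone-responsive ligand, was lower in both, at 25.6 CPM with FGF10 and 21.09 CPM with BSA against 154 CPM at 0 h (-2.59 ± 0.40 and -2.87 ± 0.41, edgeR adjusted p = 0.000418 and 0.000262). Lgr5, an R-spondin receptor and stem cell gene, was higher in FGF10 72 h than in FGF10 36 h, at 48.7 CPM against 6.17 CPM (2.98 ± 0.53, edgeR adjusted p = 0.0143). In the BSA arm Lgr5 averaged 35.2 CPM at 72 h and 13.7 CPM at 36 h with no overlap (1.36 ± 0.496, edgeR adjusted p = 0.208).

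The genes with the most similar pattern to each member were found by Pearson's r of log2(CPM + 1) over the 15 libraries among 10481 genes. The libraries fall into groups and share their normalization, so r describes shared group differences. For Tcf7 the closest was Cfl1, an actin-severing protein gene (r = 0.965, and 0.965 over the 12 libraries after 0 h). For Nkd2 it was Sgcb (0.968 and 0.923), and Bcl11b followed with 0.962. For Nkd1 it was Ginm1 (0.965 and 0.939), and H2-Ab1, a class II antigen presentation gene, followed with 0.958. For Wif1 it was Nt5e (0.907 and 0.929), for Dkk3 Tpm1 (0.875 and 0.906) and for Sfrp1 Hmcn1 (0.934 and 0.952). For Rnf43 it was Herc2 (0.966 and 0.854), for Znrf3 Uhrf2 (0.903 and 0.911) and for Axin2 Gna11 (0.839 and 0.909). Between members, r was -0.842 for Nkd2 with Rnf43, -0.773 for Nkd1 with Nkd2, -0.786 for Tcf7 with Nkd1 and 0.681 for Tcf7 with Wif1.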

How the data were processed

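Raw fragment counts per gene were deposited as 1 table. It was written by featureCounts 2.0.1 from fragments over exons, counted as pairs, unstranded and summed by gene name, per the file headers. Fragments assigned to several places or genes were left out, and overlap with antisense genes could not be separated. The submitters' processing notes name HISAT2 2.2.1, GRCm39, HTSeq, DESeq2, cutadapt 1.9.1 and FastQC. The headers were followed on the counter. After filterByExpr (minimum count 10, minimum total 15) and TMM scaling, edgeR 4.0.16 (R 4.3.3) was run with its robust quasi-likelihood test in 1 fit of 5 groups with 10 residual degrees of freedom. A standard error is the size of the log2 difference divided by the root of its F. The 9 contrasts were each adjusted (Benjamini-Hochberg) over 18140 genes. The titles of FGF10 72 h say FGF0, and the treatment label was followed. Libraries 2_1 and 2_2 had a mean chi-square per gene of 4.62, the lowest of 15 pairs within a group (the next was 10.6) but above the 1 that sampling noise gives. They were kept as 2 libraries and summed as an alternative. Whether they share a culture is not given in the sources used here. The genes, lists and tests were chosen with earlier results of these data known. From the other lists, the called genes with the smallest p were named, up to 4 in FGF10 against BSA and up to 3 elsewhere, or otherwise the 2 highest per kilobase, and only some are printed. Similar genes were the 3 with the highest r among genes averaging at least 5 CPM. Alternatives were DESeq2 size factors, other filters, the replicate numbers as a block, only the groups compared, 2_1 and 2_2 summed, limma voom 3.58.1, the Wald test of DESeq2 1.42.0 and leaving out 1 library at a time. The scripts were tested on simulated data.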

Additional observations from a re-analysis of the deposited data

How the results depend on the processing

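Depth limits Axin2 and Lef1, which had 126 and 13 counts in all, and 3 libraries per group make calls near the threshold depend on single libraries. The labels do not say what a replicate number marks, so the fit without the block is the one reported. No 2 groups had 3 same-number pairs that all correlated above 0.1. FGF10 36 h and BSA 36 h have only 2 such pairs and could not have met that, so it decides nothing. These data do not settle whether the numbers pair the samples. Of 21 pairs with the same number, 10 had deviations that correlated above 0.1, and of 69 others 13 did. Between FGF10 36 h and BSA 36 h the 2 same-number pairs had r of 0.326 and 0.525, above the 0.191 that was the highest of the 7 others. With the block the calls of the 9 genes in FGF10 against BSA were the same at 36 h, and at 72 h Dkk3 was added. The count of genes called among the 9 was 2 for FGF10 36 h against BSA 36 h, 0 in a fit of only those groups, 1 with 2_1 and 2_2 summed and 0 to 3 with 1 library left out. For FGF10 72 h against BSA 72 h it was 4, with 7 under limma voom, 2 with 2_1 and 2_2 summed and 2 to 5 with 1 library left out. For FGF10 72 h against FGF10 36 h it was 2, with 1 under DESeq2 size factors and 1 with the replicate block, 0 with no filter, 0 with 2_1 and 2_2 summed and 0 to 3 with 1 library left out. For BSA 72 h against BSA 36 h it was 0, with 2 under limma voom, 1 under the DESeq2 Wald test, 1 with only those groups and 0 to 1 with 1 library left out. Over all tested genes the counts ran from 78 to 1460 around 425 for FGF10 36 h against BSA 36 h and from 148 to 5025 around 1087 for FGF10 72 h against BSA 72 h. For BSA 72 h against BSA 36 h they ran from 0 to 2683 around 85, and for FGF10 72 h against FGF10 36 h from 99 to 862 around 346. For FGF10 36 h against 0 h they ran from 3847 to 7609 around 7225, and for the change of the FGF10 effect from 0 to 18 around 0. The cause of these shifts was not tested.

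Some differences changed sign, none of them called. With the replicate block, FGF10 36 h against BSA 36 h was -0.25 for Axin2 and 0.036 for Sfrp1. Under the same block, FGF10 72 h against FGF10 36 h was -0.027 for Nkd1, 0.012 for Rnf43 and -0.087 for Dkk3, and BSA 72 h against BSA 36 h was 0.021 for Znrf3. The block also gave Dkk3 in FGF10 72 h against BSA 72 h an edgeR adjusted p of 0.028. Under limma voom, Axin2 was -0.51 in FGF10 36 h against BSA 36 h and 0.20 in FGF10 72 h against FGF10 36 h, and against 0 h FGF10 36 h was 0.16 for Znrf3 and 0.11 for Wif1. With 1 library left out, FGF10 36 h against BSA 36 h ran from -0.81 to 0.45 for Axin2, -0.20 to 0.097 for Rnf43 and -0.85 to 0.10 for Sfrp1. FGF10 36 h against 0 h ran from -1.32 to 0.17 for Axin2, -0.21 to 0.20 for Znrf3, -0.64 to 0.36 for Wif1 and -0.40 to 1.08 for Sfrp1. Dkk3 in FGF10 72 h against 0 h ran from -0.35 to 0.025, and Axin2 in BSA 36 h against 0 h from -0.94 to 0.15. FGF10 72 h against FGF10 36 h ran from -0.90 to 0.43 for Axin2, -0.23 to 0.43 for Nkd1, -0.039 to 0.37 for Znrf3 and -0.072 to 0.21 for Dkk3. Znrf3 in BSA 72 h against BSA 36 h ran from -0.34 to 0.051.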
